A study of Drosophila melanogaster with 5 samples.

Results

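The synaptic vesicle release machinery was examined in heads of Drosophila melanogaster pupae, in a mutant of the homeodomain gene oc (orthodenticle, otd) and in a wild-type strain. Its members were 10 genes chosen by name: nSyb, Syn, Syt1, Syx1A, Snap25, brp, cpx, Rim, unc-13 and Csp. Every probe set that the array annotation gives to one of these genes alone was kept. This gave 10 probe sets for 6 genes, out of 13966 probe sets tested for 10844 genes: 3 each for brp and Rim and 1 each for nSyb, Syn, unc-13 and Csp. The other 4 genes, Syt1 (the vesicle calcium sensor), Syx1A and Snap25 (SNARE proteins of the plasma membrane) and cpx (complexin, which binds the assembled SNAREs), were not analysed here.

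Neurotransmitter is released when a synaptic vesicle fuses with the plasma membrane at the active zone. Fusion is driven by a SNARE complex that joins a vesicle protein to proteins of the plasma membrane, and calcium that enters through nearby channels triggers it. Scaffold proteins hold vesicles and channels at the release site, and priming factors make vesicles ready to fuse. In the fly eye, photoreceptors use this machinery to release histamine onto neurons of the optic lobe, and all other neurons of the head use it as well.

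The samples were Canton S, a wild-type laboratory strain, with 2 arrays, and the strain otd-uvi, described in the labels as an eye-specific mutant allele, with 3 arrays. Every array measured RNA from a separate extraction of 15 to 20 pooled whole heads, taken 80 h after pupa formation. No further allele, treatment or sex is named for either group, and each group is 1 strain, so differences of strain background cannot be told apart from those of the otd allele. Values are MAS5 signals, a linear measure of probe set brightness already scaled between arrays, and differences are otd-uvi minus Canton S on log2(signal + 8).

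The comparison asked which genes of the late pupal head differ when Otd function in the eye is reduced. For oc itself (143425_at) the Canton S arrays gave 71.7 and 56.4 and the mutant arrays 27.6, 46.8 and 59.8. The groups overlapped, and the log2 difference was -0.49 (limma SE 0.33, adjusted p = 0.527), or -0.23 without otd-uvi replicate 1. Arrays of the same strain correlated over probe sets at 0.953 to 0.966 and arrays of unlike strain at 0.930 to 0.955. The brightest of 8 control probe sets against mouse and yeast RNA, used here as a measure of background, reached 9.13 and 9.30 in Canton S but 11.2 to 22.9 in the mutant. With 5 arrays in all, their number sets the precision of each result.

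Probe sets of vesicle proteins and of the active zone mostly had lower signals in otd-uvi. On the log2 scale used here, the most negative differences were those of synapsin and neuronal synaptobrevin. This order depended on how low signals were treated before log2. With a floor in place of an added constant, the dim brp 146885_at was lowest, at -1.74, beside -1.31 for Syn and -0.96 for nSyb. With a larger added constant of 32 it was at -0.40, beside -1.09 and -0.85. Of the 10 member probe sets 9 had a log2 difference below 0, where 44.8% of all probe sets did. None of the 10 passed the test in limma at an adjusted p under 0.05, a threshold that 0.773% of all probe sets passed. At an unadjusted p under 0.05 there were 5, all lower in otd-uvi, against 7.27% of all probe sets in that direction. These were Syn, nSyb, unc-13 and 2 of the 3 Rim probe sets. The count was 3 when Canton S replicate 2 or otd-uvi replicate 1 was left out, and 7 when otd-uvi replicate 2 was. The same 5 were lower in otd-uvi with no overlap between the groups, which held for 15.4% of all probe sets. The median log2 difference over the 10 was -0.70, beside 0.05 over all probe sets.

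**Figure D1:**
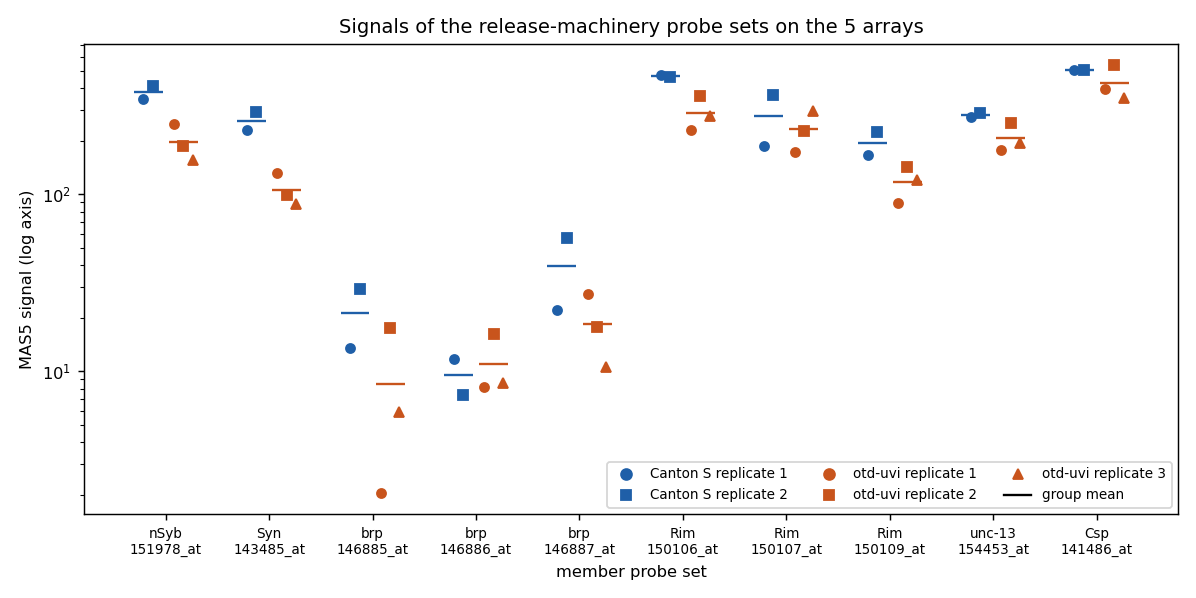
MAS5 signal (log axis) of each member probe set on the 2 Canton S arrays (blue) and the 3 otd-uvi arrays (orange), with symbols for the replicate and horizontal lines for the group means. The otd-uvi signals of nSyb, Syn, unc-13 and the Rim probe sets 150106_at and 150109_at all lie below both Canton S signals, and the brp probe sets lie far below the other members on every array.

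Among the vesicle proteins, Syn encodes synapsin, a phosphoprotein that tethers vesicles in the reserve pool. The Canton S signals (143485_at) were 230.1 and 291, and those of otd-uvi 132, 98.6 and 88.5. The highest otd-uvi array was thus well below the lower Canton S array. The mean went from 261 ± 43.3 (SD, n = 2) to 106 ± 22.7 (SD, n = 3), or 40.8% of the Canton S mean. The log2 difference was -1.24 (SE 0.22, 95% interval -1.76 to -0.73), ranked 149th of 13966 by p-value, with a limma adjusted p = 0.0650 that did not pass. Without the dimmest 40% of probe sets, which leaves fewer tests to adjust for, it passed at an adjusted p = 0.0326. Over the 15 alternatives its adjusted p ranged from 0.0326 to 0.371 and its log2 difference from -1.41 to -1.004.

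nSyb encodes neuronal synaptobrevin, the vesicle SNARE protein, which is cleaved by tetanus toxin. Canton S arrays had signals (151978_at) of 345 and 411, and otd-uvi arrays 249, 188 and 155. The groups did not overlap, and the means were 378 ± 46.8 (SD, n = 2) and 197 ± 47.2 (SD, n = 3). The log2 difference was -0.93 (SE 0.22, 95% interval -1.44 to -0.43, limma adjusted p = 0.122) and did not pass the test. It stayed below 0 in all 15 alternatives, between -1.11 and -0.65.

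Csp encodes cysteine string protein, a vesicle co-chaperone that keeps SNARE proteins folded. Both Canton S signals (141486_at) were alike, 502.2 and 501.9, while those of otd-uvi were 396, 536 and 352. The groups overlapped, since otd-uvi replicate 2 was above both Canton S arrays and the other two below. The log2 difference was -0.25, with a 95% interval of -0.70 to 0.20 (limma adjusted p = 0.576). Leaving out otd-uvi replicate 2 gave -0.42, and leaving out otd-uvi replicate 3 gave -0.12. The interval of Csp holds the value estimated for unc-13 as well as values above 0.

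At the active zone, Rim encodes a scaffold protein that binds vesicle-bound Rab3 and calcium channels. Its brightest probe set (150106_at) gave 471 and 458 for Canton S, against 231, 358 and 277 for otd-uvi. All otd-uvi arrays were below both Canton S arrays, with a log2 difference of -0.70 (SE 0.19, 95% interval -1.15 to -0.24, limma adjusted p = 0.186). The probe set 150109_at gave 166 and 224 for Canton S, against 89.0, 143 and 119.9 for otd-uvi. It gave a similar log2 difference of -0.70 (SE 0.24, adjusted p = 0.254), and its groups did not overlap either. The third, 150107_at, gave 188 and 363 for Canton S, against 173, 228 and 297 for otd-uvi. Its Canton S arrays were farther apart than the group means, the groups overlapped, and its log2 difference of -0.20 (95% interval -0.94 to 0.55) became 0.26 without Canton S replicate 2. With Canton S replicate 1 left out it was -0.65, with otd-uvi replicate 1 left out -0.0076, and with otd-uvi replicate 3 left out -0.38.

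brp encodes Bruchpilot, the large protein of the T-shaped active zone density, related to vertebrate ELKS. Its probe sets were dim. The probe set 146885_at gave 13.6 and 29.1 for Canton S, against 2.05, 17.6 and 5.87 for otd-uvi, and was above the brightest control on 3 of 5 arrays. The probe set 146887_at gave 22.1 and 56.7 for Canton S, against 27.3, 17.7 and 10.6 for otd-uvi, above the controls on 4 of 5 arrays. The groups of both overlapped. Their log2 differences were -0.89 (95% interval -1.92 to 0.15, limma adjusted p = 0.403) and -0.78 (95% interval -1.81 to 0.24, limma adjusted p = 0.449). They were -0.50 and -0.23 when Canton S replicate 2 was left out, and -1.28 and -1.33 when Canton S replicate 1 was. Leaving out otd-uvi replicate 1 gave -0.59 for 146885_at. Over the 14 alternatives that kept it, 146885_at ranged from -1.74 to -0.40.

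The remaining brp probe set, 146886_at, gave 11.7 and 7.36 for Canton S, against 8.12, 16.2 and 8.57 for otd-uvi. It was above the brightest control on 2 of 5 arrays, and its log2 difference of 0.10 (95% interval -0.55 to 0.75) was the only member value above 0. All brp signals lay between 2.05 and 56.7, beside brightest controls of 9.13 to 22.9, and a log2 difference of the size seen for Syn lay within the interval of both 146885_at and 146887_at.

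unc-13 encodes the priming factor that opens syntaxin for SNARE assembly. Canton S signals (154453_at) were 274 and 289, and otd-uvi signals 178, 252 and 195. The groups did not overlap, with means of 281 ± 10.6 (SD, n = 2) and 208 ± 38.8 (SD, n = 3). The log2 difference was -0.44 (SE 0.18, 95% interval -0.87 to -0.0044, limma adjusted p = 0.328) and did not pass. Over the 15 alternatives it ranged from -0.58 to -0.30. The unadjusted limma p of unc-13 was 0.0482, near the cut. It was 0.108 with quantile normalization and 0.0838 with cyclic loess, but 0.0315 with median centring and 0.0132 without otd-uvi replicate 2. Of the 5 members with an unadjusted p under 0.05, unc-13 had the smallest difference.

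**Figure D2:**
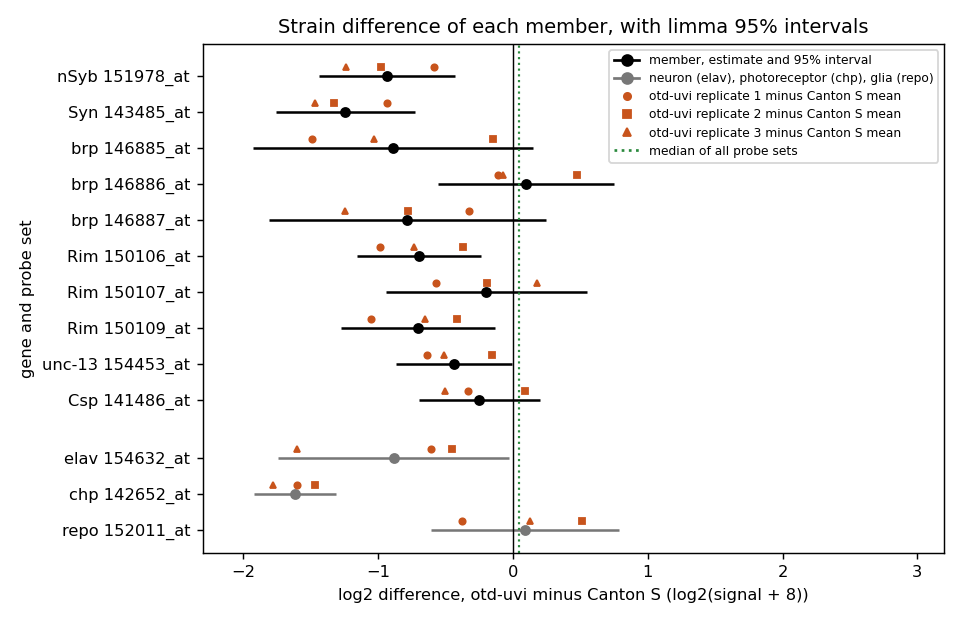
Log2 difference (otd-uvi minus Canton S) of each member probe set with its limma 95% interval (black), and of elav, chp and repo (grey), with each otd-uvi array against the Canton S mean in orange and the median of all probe sets as a dotted line. The intervals of nSyb, Syn, unc-13 and 2 Rim probe sets lie below 0, that of brp 146886_at is centred near 0, and elav, chp and repo are shown for reference.

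The members did not share 1 order over the arrays. Otd-uvi replicate 2 had the highest otd-uvi signal for 6 of the 10 member probe sets, among them both lower Rim probe sets, unc-13 and Csp, and the lowest for none. Over all probe sets it was highest in 34.6% and lowest in 30.7%. For Syn and nSyb the highest otd-uvi array was instead replicate 1, and the lowest replicate 3. Against the Canton S mean, the median over the 10 members was -0.61, -0.28 and -0.69 on otd-uvi replicates 1, 2 and 3. Canton S replicate 2 was above replicate 1 for 7 of the 10, where this held for 44.3% of all probe sets, and without it the median over the members was -0.45.

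Signal strength and RNA quality were set beside these values. Bright probe sets as a whole were slightly lower in otd-uvi: among the 2794 in the top 2 deciles of mean signal (above 145) 65.4% were below 0 and their median was -0.11. The 7 members in these deciles, which are all but brp, were all below 0 with a median of -0.70, and 5 of them had an unadjusted p under 0.05, beside 16.1% of the 2794 in that direction. RNA quality was read from the actin, GAPDH and eIF-4a controls, whose log2 ratio of signal at the 3-prime end over the 5-prime end is higher in degraded RNA. Averaged over the 3 controls, this ratio was 1.41 and 1.37 for Canton S, against 1.32, 1.68 and 1.88 for otd-uvi. The groups overlapped, since otd-uvi replicate 1 had the lowest ratio of the 5 arrays. With the ratio as a covariate the log2 difference was -1.004 for Syn and -0.65 for nSyb (limma adjusted p of 0.180 and 0.239), -0.83 and -0.89 for Rim 150106_at and 150109_at, and -0.52 for unc-13.

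Markers of head cell types were set beside the members, since a whole head holds brain, retina, glia, muscle, fat body and blood cells. In such bulk samples fewer cells of a type and less RNA per cell cannot be told apart. The neuronal RNA-binding protein gene elav (154632_at) gave 154 and 116 for Canton S, against 85.2, 95.6 and 38.7 for otd-uvi. It was lower on all otd-uvi arrays, with a log2 difference of -0.88 (SE 0.36, limma adjusted p = 0.321) that did not pass and that was -0.53 without otd-uvi replicate 3. Over the 15 probe sets of 11 measured general neuron markers, 12 were below 0, beside 44.8% of all probe sets, with a median of -0.37. At an unadjusted limma p under 0.05 there were 4, all lower, beside 7.27%, and none passed. The 3 above 0 were dim: Rbp9 145682_at, futsch 144060_at and futsch 144381_at were above the brightest control on 1, 3 and 2 of 5 arrays. The summed signal of the 15 was 5752 and 6038 in Canton S and 3729 to 5158 in otd-uvi. Much of it was nrv3 (146586_at), at 2693 and 2752 in Canton S and 1843 to 1995 in otd-uvi.

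Of 14 photoreceptor marker probe sets 4 passed in limma at an adjusted p under 0.05, all lower in otd-uvi, beside 0.773% of all probe sets. In all 11 were below 0 and 3 above, from -1.61 to 0.65, with 8 lower and 1 higher at an unadjusted p under 0.05, and their median of -0.67 was close to the -0.70 of the members. The summed signal was 15820 and 17437.5 in Canton S and 8348 to 10248 in otd-uvi. The photoreceptor membrane gene chp (142652_at) fell from 3008 and 3065 to 997, 1092 and 880.3, a log2 difference of -1.61 (SE 0.13, limma adjusted p = 0.00968). Glial markers (11 probe sets, none passed) had a median of 0.05, with 4 below 0 and 7 above, from -1.08 to 0.48. At an unadjusted limma p under 0.05 there were 2, both lower, beside 7.27% of all probe sets. Without overlap between the groups 4 were lower, beside 15.4% of all probe sets, and 2 were higher. The summed glial signal was 5474 and 5753 in Canton S and 4104 to 4762 in otd-uvi. The defining glial gene, repo, overlapped between the groups at 90.3 and 71.4 against 60.2, 118 and 88.5. Medians were -0.05 for muscle (15 probe sets), -0.67 for fat body (9) and 0.34 for hemocytes (10), and 1 probe set, the hemocyte gene NimC1, passed among these. The marker genes elav, chp and repo were above the brightest control on all 5 arrays. The part of neuron number or of photoreceptors in the members' values was not tested.

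Each member was also compared with these markers on the same array, which removes a shift common to both. Against elav, the change in the log2 ratio from Canton S to otd-uvi ranged from -0.36 for Syn to 0.98 for brp 146886_at, with 3 below 0 and a median of 0.18. The groups did not overlap for 2 of the 10, Csp at 0.64 and brp 146886_at, a share below the 66.0% of all probe sets that were higher relative to elav without overlap. As brp 146886_at was above the brightest control on 2 of 5 arrays, its ratios are not read as differences in level. For nSyb the ratio to elav differed by -0.05 with overlapping groups. Against the mean of the 15 general neuron marker probe sets the median was -0.36, with 7 of 10 below 0. That mean includes the dim Rbp9 145682_at, futsch 144060_at and futsch 144381_at, above the brightest control on 1, 3 and 2 of 5 arrays. Their log2 differences of 0.74, 0.19 and 0.22 raise the mean in otd-uvi, which lowers the members' ratios to it. The other 12 probe sets were below 0, down to -1.54 for onecut (150982_at), which lowers the mean and raises the ratios. The gene elav, at -0.88, is 1 of these 12, so the 2 references are not independent. Here Syn at -0.90 and Rim 150106_at at -0.35 were lower without overlap, beside 3.01% of all probe sets in that direction, and brp 146886_at at 0.44 was the only one higher without overlap, beside 24.8%.

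**Figure D3:**
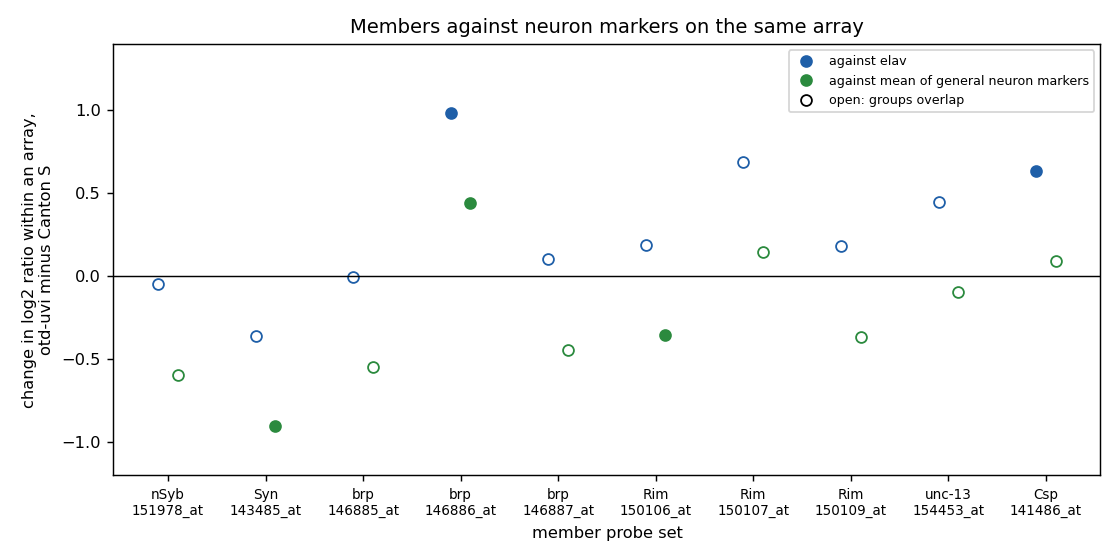
Change in the log2 ratio of each member probe set to elav (blue) and to the mean of the general neuron markers (green) on the same array, otd-uvi minus Canton S, with open symbols where the groups overlap. Values against elav lie from -0.36 to 0.98, and Syn has the lowest value for both references.

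Other genes of the vesicle cycle were taken from 4 lists of 59 genes, of which 49 were measured with 71 probe sets. None of the 71 passed in limma at an adjusted p under 0.05. At an unadjusted p under 0.05 24 were lower and 1 was higher in otd-uvi, beside 7.27% and 7.77% of all probe sets. In all 54 of the 71 were below 0, beside 44.8% of all probe sets, and their median was -0.36. Of the 28 in the top 2 deciles of mean signal 23 were below 0, beside 65.4% of all probe sets in these deciles. Among the same 28, 12 were lower at an unadjusted limma p under 0.05, beside 16.1% of all probe sets in these deciles.

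Genes of vesicle fusion and priming came nearest to the members, with 20 of 23 probe sets below 0, a median of -0.64 and 11 lower at an unadjusted p under 0.05. The examples with the largest t statistic were alphaSnap, the adaptor that recruits NSF to spent SNARE complexes, Tomosyn, an inhibitor of SNARE assembly, and Rab3, the vesicle GTPase that Rim binds. For alphaSnap (154026_at) the Canton S signals were 343 and 301, and those of otd-uvi 219, 203 and 179.7, which is -0.66 on the log2 scale (SE 0.16, limma adjusted p = 0.131). Those of Rab3 (143548_at) were 116 and 164 against 75.6, 79.6 and 40.8, which is -1.04 on the log2 scale (SE 0.31, limma adjusted p = 0.213). One Tomosyn probe set (151530_i_at) was at -0.96 (SE 0.29, adjusted p = 0.208). The groups did not overlap for these 3 probe sets. The other 4 Tomosyn probe sets ranged from -0.93 (142337_at, without overlap) to 0.03 (155093_at, adjusted p = 0.979), and 3 of the 4 overlapped between groups.

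The list of active zone and calcium entry genes had 16 of 24 probe sets below 0, a median of -0.44 and 7 lower at an unadjusted p under 0.05. The kinesin gene unc-104, whose motor carries synaptic vesicle precursors along axons, gave (147330_at) 614 and 848 for Canton S, against 445, 309.8 and 256 for otd-uvi. Its log2 difference was -1.12 (SE 0.25, limma adjusted p = 0.117). Both probe sets of dlg1, a synaptic scaffold gene, were lower on every otd-uvi array, at -1.13 for 144871_at (limma adjusted p = 0.131) and -0.88 for 151772_at (limma adjusted p = 0.118).

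Genes of vesicle recycling by endocytosis had 16 of 18 probe sets below 0, a median of -0.30 and 6 lower at an unadjusted p under 0.05. Synj encodes synaptojanin, a lipid phosphatase that helps to uncoat vesicles after endocytosis. Canton S signals (141600_at) were 93.8 and 76.5, and otd-uvi signals 36.7, 22.4 and 27.0, without overlap, with a log2 difference of -1.36 (SE 0.28, limma adjusted p = 0.0986). Without the dimmest 40% of probe sets its adjusted p was 0.0397. The clathrin adaptor subunit gene AP-2alpha was at -0.59 (adjusted p = 0.152) and EndoA, endophilin, at -0.55 (adjusted p = 0.286).

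Vesicle filling, the loading of transmitter by transporters and the proton pump, was the list that did not lean one way. Of its 7 probe sets 3 were below 0, with a median of 0.05. The vesicular glutamate transporter gene VGlut (145640_at) gave 212 and 384 for Canton S, against 179.7, 74.5 and 66.4 for otd-uvi, or -1.49 on the log2 scale (SE 0.43, limma adjusted p = 0.202). The brighter probe set of Vmat (152678_at), the monoamine transporter gene, gave 349.6 and 460.1 for Canton S, against 433, 869 and 823 for otd-uvi. Its groups overlapped, and its log2 difference was 0.74 (SE 0.30, adjusted p = 0.317), while the dim 147158_at was at 0.05. Vha55, a subunit of the proton pump, was at 0.31 (SE 0.13, adjusted p = 0.335).

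**Figure D4:**
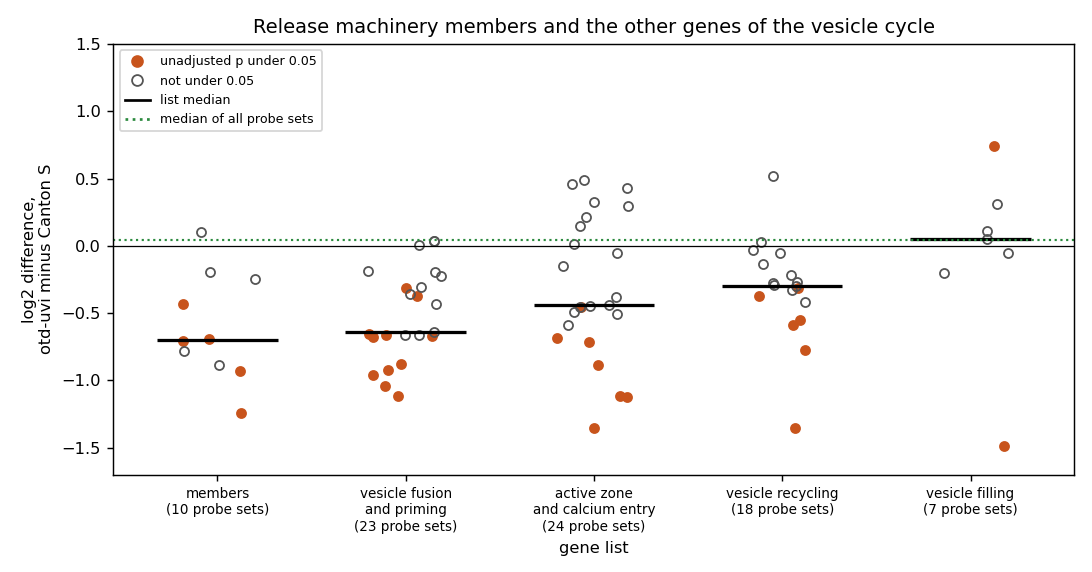
Log2 difference (otd-uvi minus Canton S) of each probe set of the members and of the 4 lists of other vesicle cycle genes, filled where the unadjusted p was under 0.05, with list medians as black lines and the median of all probe sets dotted. The medians are -0.70, -0.64, -0.44, -0.30 and 0.05 from left to right, and points are spread sideways only to separate them.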

How the data were processed

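Biotin-labelled RNA from pupal heads was hybridised to Affymetrix arrays, each sample to an array of its own. The authors deposited MAS5 signal intensities on a linear scale, per the submitters' processing notes. Its version, settings, scaling target and detection calls are not given in the sources used here. Of 14010 probe sets 44 controls were left out. An array annotation table gave 1 gene for 12443 probe sets, and current symbols were looked up by gene identifier.

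The value 8, the 20th percentile of signals after rounding, was added before log2. The model had strain as its only term (limma version 3.58.1 under R version 4.3.3, functions lmFit and eBayes, with an intensity trend), with Benjamini-Hochberg adjustment over 13966 probe sets. The threshold was 0.05. The pipeline was tested on simulated data. Arrays count as replicates because each came from its own RNA extraction.

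The members and lists were chosen with earlier results of these data known, so no list was tested. Named genes were all member probe sets, the 3 probe sets with the largest absolute t in each vesicle cycle list, and oc, elav, chp and repo. NimC1 and the neuron markers nrv3, Rbp9, futsch and onecut were named after their values were seen. List symbols were matched without regard to case, and Hsc70-4 is on 2 lists and was counted once in the total. Nucleotide and protein sequences were not used here. Alternatives changed the scaling (quantile normalization, median centring, cyclic loess), the pseudocount (32, or a floor at the 1st percentile), the filter (the dimmest 40% left out), the variance model (without the trend, or with array weights) and the probe set (the brightest per gene). Others added the replicate number as a block, added the RNA quality ratio of the controls as a covariate, or left out each array.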

Additional observations from a re-analysis of the deposited data

How the results depend on the processing

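The median log2 difference over the members stayed below 0 in all 16 alternatives. It was -0.43 with a pseudocount of 32 and ranged from -0.82 to -0.45 without 1 array, the value nearest 0 being that without Canton S replicate 2. Without the dimmest 40% of probe sets 1 member (Syn) and 1 other vesicle cycle probe set (Synj) passed, and 0 of either in the other 15 alternatives. The count of members lower at an unadjusted p under 0.05, whose alternatives were chosen after seeing the data, was 3 to 7 without 1 array and 4 or 5 otherwise. Signs turned for brp 146886_at, at -0.15 with quantile normalization, -0.087 with cyclic loess and -0.090 to 0.28 without 1 array, where it was below 0 without Canton S replicate 2 or otd-uvi replicate 2. They also turned for Rim 150107_at, from -0.65 to 0.26 without 1 array, the highest being that without Canton S replicate 2. The causes were not tested.

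Of all probe sets 108 passed, against 200 of 8379 without the dimmest 40%, 8 with the RNA quality covariate, and 2 to 22 without 1 array. With the replicate number as a block 1 passed, the median over the members was -0.61, and no member passed. The labels tie the numbers to no shared source. Deviations from the group mean correlated at -0.0045 for arrays numbered 1 and at 0.12 for those numbered 2. Canton S replicate 1 and otd-uvi replicate 3 also gave 0.12. With 2 Canton S arrays the deviations of one mirror those of the other, so these correlations cannot decide whether a source was shared.

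A lone Canton S array takes its spread from the mutant arrays. Dim probe sets such as those of brp, near the control signals, limit what can be read from their levels.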
